A study of Mus musculus with 2 samples.

Results

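Genes of the primary cilium and of intraflagellar transport were described in newborn ovaries in which hedgehog signalling had been switched on. The 50 genes encode train and motor proteins of the cilium, the BBSome, the transition zone at its base and ciliary regulators of hedgehog signalling, and were chosen by name, as all probe sets whose single symbol in the platform annotation is one of them. Probe sets existed for 47 of the 50, and all 47 reached the signal minimum of 80.7, among 12308 measured genes on the array. The expression of Arl6, Arl13b and Rpgrip1l was not analysed here.

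The mutant group was Amhr2(cre/+)-SmoM2 and the control group Amhr2(+/+)-SmoM2, both 2 days old. Each group was 1 array hybridised with RNA pooled in equal amounts from the ovaries of 8 mice. SmoM2 is a constitutively active Smoothened, carried by both groups, and Cre from the Amhr2 locus, active in somatic cells of the gonad, switches it on in the mutant. Cre and the changed Amhr2 copy differ between the groups together with SmoM2 activity, so their effects cannot be told apart. No difference has a replicate check, since each group is 1 array. All fold values describe these 2 arrays, and the spread between animals was not measured.

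The primary cilium is a single, non-motile projection of the plasma membrane, and in vertebrates the hedgehog signal is passed on inside it. When ligand binds Ptch1, Smoothened accumulates in the cilium and the Gli factors are processed at its tip and base. Intraflagellar transport carries proteins along it, with IFT-B trains and kinesin moving to the tip and IFT-A and dynein moving back. Most somatic cells carry such a cilium, so these genes are transcribed widely.

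Targets of the pathway were brighter in the mutant pool, which checks the labels. Ptch1, the receptor and a direct target of the pathway, had a log2 ratio of 1.51, and Gli1 of 1.19. Hhip had a signal of 3216 in mutant ovaries against 1.1, under the signal minimum, in control ovaries, which is at least 39.8-fold higher. Smo had a log2 ratio of 0.28 and Amhr2 of -1.30. The other measured probe sets of Amhr2 gave -1.26 and, at a dimmer signal, -0.26. Ovarian identity markers were bright in both pools. Foxl2, the granulosa lineage factor, read 4182 in mutant ovaries against 8097 in control ovaries, and Figla, an oocyte factor, 3889 and 7591. The signal ratio of the 3' over the 5' beta-actin control probe sets was 10.5 in mutant ovaries against 8.48 in control ovaries, and that of Gapdh 4.98 and 3.28.

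Most cilium genes differed by less than 1.5-fold between the pools. Their log2 ratios of mutant over control ran from -0.81 (Ift172) to 0.92 (Cep290), with a median of -0.04, and the median of all 12308 measured genes was -0.02. Of the 47 genes 22 lay above 0 (46.8%), where 47.5% of all measured genes did, and 25 below. Of all 12308 measured genes 5848 lay above 0 and 6456 below. These 2 counts are the background for the directions in the role groups that follow. At least 1.5-fold higher were 2 of 47 (4.26%), Cep290 and Evc2, and 9.32% of all measured genes passed that fold. At least 1.5-fold lower were 2 of 47 (4.26%), Ift172 and Ift27, where 7.90% of all measured genes did. At 2-fold the counts were 0 higher and 0 lower, with 3.21% and 1.40% of all measured genes past that fold. The other 43 genes lay within 1.5-fold. Among brighter genes the shares lay closer together: with the signal minimum raised to 442, 5.88% of 34 cilium genes were higher and 5.88% lower, against 7.07% and 5.71% of all genes. Without probe sets shared between transcripts 4.88% of 41 were higher and 9.76% lower, against 9.25% and 8.59% of all genes.

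The spread among the cilium genes was also no wider than that of other genes. The middle 50% of them covered 0.44 on the log2 scale, and that of all measured genes 0.53. Their mean signals ran from 122 to 6207, and 2 genes, Bbs9 and Tctn2, lay under 2 times the signal minimum. Among the 10140 measured genes with a mean signal in that range 8.20% were at least 1.5-fold higher and 7.18% lower.

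**Figure D1:**
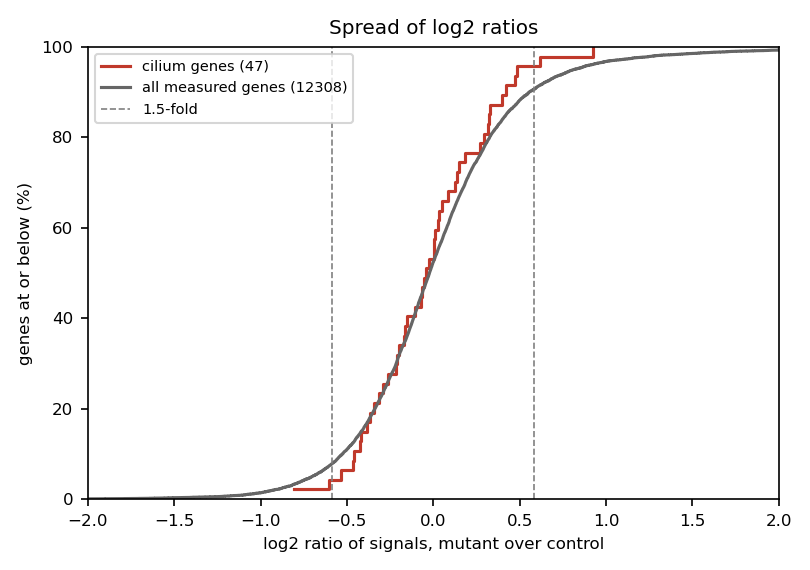
Cumulative share of genes (vertical axis, percent) at or below each log2 ratio of signals, mutant over control (horizontal axis), for the 47 cilium genes and for all 12308 measured genes. The line of the cilium genes stays within -0.81 to 0.92, and 2 genes lie past each dashed 1.5-fold line.

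The IFT-B genes, which encode the trains that move to the ciliary tip, were mixed. Of 11 genes 7 had log2 ratios below 0 and 4 above (36.4%, against 47.5% of all measured genes), with a median of -0.17. Ift172, a large peripheral subunit, was the lowest of all cilium genes, with a signal of 358 in mutant ovaries against 643 in control ovaries (log2 ratio -0.81). It had a single probe set. Ift27, a small GTPase that helps the BBSome leave the cilium, read 4917 in mutant ovaries against 7498 in control ovaries (log2 ratio -0.61). Its second probe set gave nearly the same log2 ratio, at 1047 and 1617 (-0.62), but the remaining one read 665 and 675 (-0.02). The names of the brightest and of the remaining probe set mark possible cross-hybridisation, and that of the probe set at -0.62 does not. With the mean over its probe sets Ift27 had a log2 ratio of -0.41, short of 1.5-fold. The highest of the group was Ift57, with 904 in mutant ovaries against 718 in control ovaries (log2 ratio 0.32).

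The remaining IFT-B genes lay between -0.42 and 0.15. Ift88, whose loss removes cilia in mice, read 515 in mutant ovaries against 696 in control ovaries (log2 ratio -0.42), and Ift46 had a log2 ratio of -0.37. Ift74 and Ift81, which together bind tubulin, had log2 ratios of 0.14 and -0.11. Ift52, Ift20, Ift80 and Ift22 had log2 ratios of -0.26, -0.17, 0.08 and 0.15. A second probe set of Ift80 was dimmer, at 196 in mutant ovaries against 113 in control ovaries, and had a log2 ratio of 0.69.

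The IFT-A genes, which encode the complex for return transport, had the narrowest middle 50% of the 6 role groups, at 0.06 on the log2 scale. All 6 genes lay between -0.34 and 0.18, with a median of -0.06. Ift43 was the lowest, at 1768 in mutant ovaries against 2251 in control ovaries (log2 ratio -0.34). Wdr35 was the highest, at 943 and 828 (log2 ratio 0.18). Ift140, a core subunit, had almost the same signal in both pools, at 1010 in mutant ovaries against 1007 in control ovaries. Ttc21b, Wdr19 and Ift122 had log2 ratios of -0.07, -0.06 and -0.05. A dim second probe set of Ift122 read 40.8 in the mutant, under the signal minimum, and 91.6 in the control pool.

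The motor genes were lower in the mutant pool in 5 of 6 cases, with a median log2 ratio of -0.30. Kif3a, Kif3b and Kifap3 encode the subunits of the kinesin that carries trains to the tip. The brightest probe set of Kif3a read 952 in mutant ovaries against 1390 in control ovaries (log2 ratio -0.54). Its other probe sets read 782 and 1018 (-0.37), 781 and 834 (-0.09), and 255 and 793 (-1.56), so all 4 were lower in the mutant pool, by very different amounts. Dync2h1, the heavy chain of the return motor, read 486 in mutant ovaries against 680 in control ovaries (log2 ratio -0.47), and its partner Dync2li1 had a log2 ratio of -0.17. Kif17, a second kinesin, had -0.39 and Kifap3 -0.22. Kif3b was the highest motor gene, at 204 in mutant ovaries against 199 in control ovaries (log2 ratio 0.03), while another probe set of it read 248 and 142 (0.72).

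**Figure D2:**
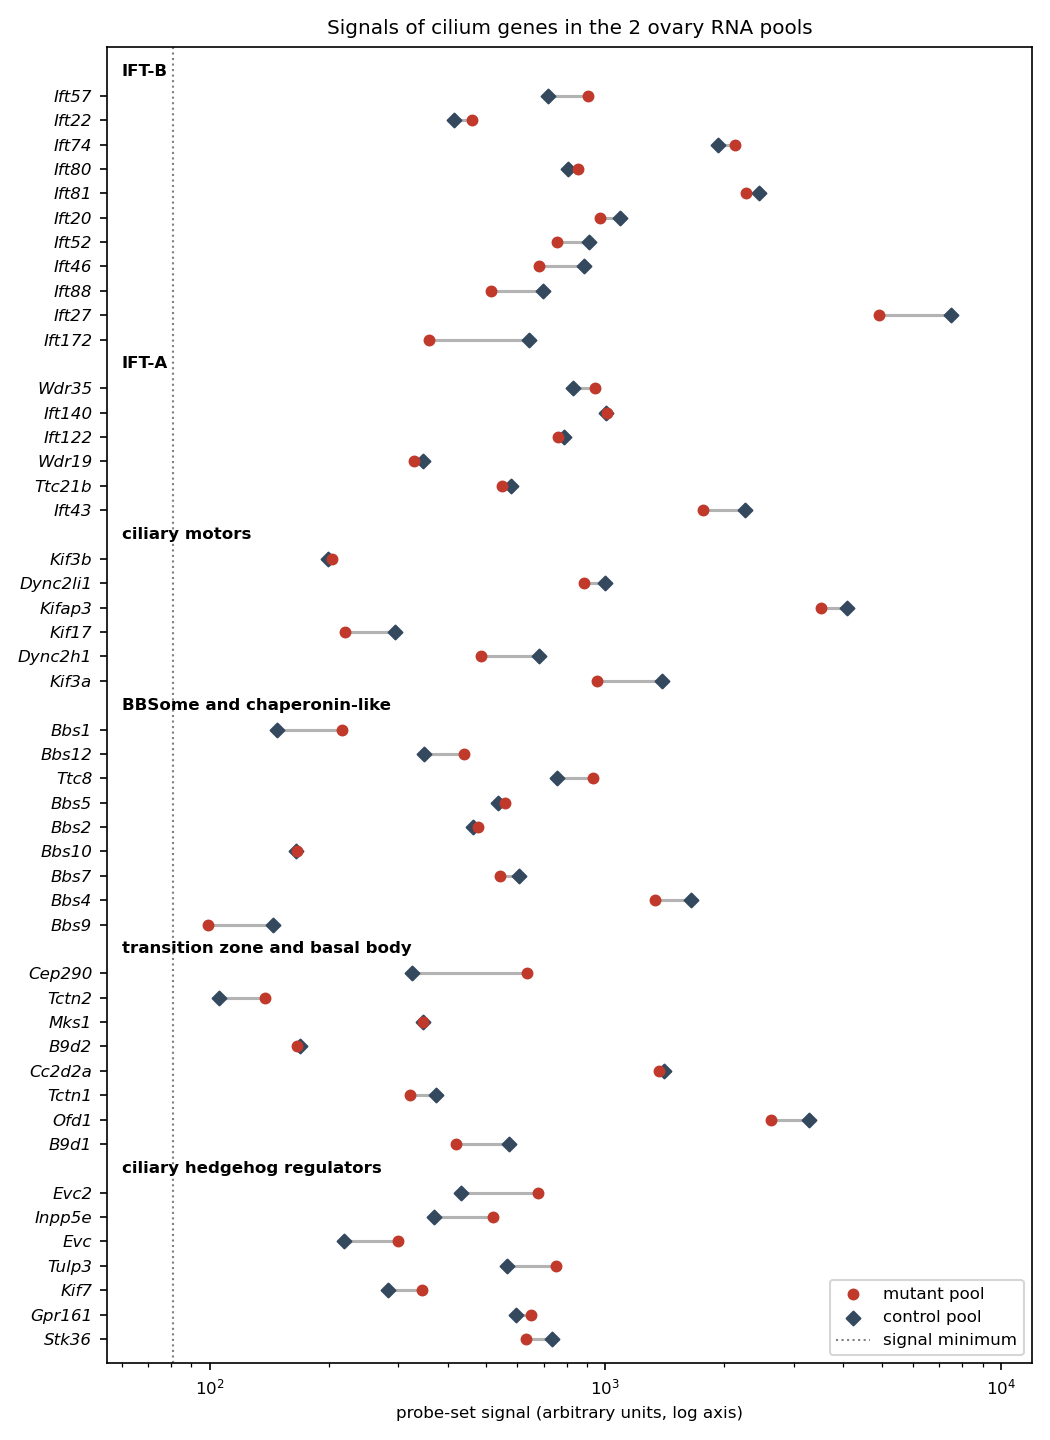
Probe-set signal (horizontal log axis, arbitrary units) of the brightest probe set of each of the 47 cilium genes in the mutant pool (circles) and control pool (diamonds), grouped by role, 1 array each; the dotted line marks the signal minimum. Most pairs of symbols lie close together, the widest gaps being those of Cep290 and Ift172, and levels are not comparable between genes because each has its own probes.

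The next group joins genes of the BBSome, the coat that sorts membrane proteins out of the cilium, with chaperonin-like genes. Its median log2 ratio was 0.03. By the brightest probe sets 6 of its 9 measured genes lay above 0 and 3 below. Bbs1 was the highest, at 217 in mutant ovaries against 149 in control ovaries (log2 ratio 0.49). Bbs9, the dimmest cilium gene in the mutant pool, was the lowest, at 99.1 and 144 (log2 ratio -0.46). Bbs4 had the widest disagreement of all cilium genes. Its brightest probe set read 1340 in mutant ovaries against 1646 in control ovaries (log2 ratio -0.29), and the others 203 and 625 (-1.52), 268 and 378 (-0.46), and 401 and 326 (0.28). No direction can therefore be given for Bbs4. Ttc8 and Bbs12, the second of which is a chaperonin-like assembly factor, had log2 ratios of 0.29 and 0.32. Bbs2, Bbs5 and Bbs10 lay between 0.01 and 0.05, and Bbs7 had -0.15.

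Genes of the transition zone, the gate at the ciliary base, had a median log2 ratio of -0.03 over 8 genes, with members on either side of 0. Cep290, a scaffold that links the microtubules of the transition zone to the membrane, read 635 in mutant ovaries against 325 in control ovaries. Its log2 ratio of 0.92 was the highest among the cilium genes, and it came from 1 probe set. The components of the membrane-linked gate complex showed no shared direction. B9d1 was the lowest, at 419 in mutant ovaries against 571 in control ovaries (log2 ratio -0.43), whereas its partners B9d2 and Mks1 had log2 ratios of -0.02 and 0.005. Tctn1 and Tctn2 had -0.20 and 0.33, and Cc2d2a had -0.04. Ofd1, a protein of the distal centriole, had a log2 ratio of -0.32, at 2629 in mutant ovaries against 3280 in control ovaries.

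The ciliary regulators of hedgehog signalling had the highest median of the 6 role groups, at a log2 ratio of 0.40, with 6 of 7 genes above 0. With the second brightest probe set where a gene had several measured, the median was 0.22. Of this group only Inpp5e and Tulp3 had several, and the other genes kept their value. Evc2 read 676 in mutant ovaries against 433 in control ovaries (log2 ratio 0.62). Evc, which forms a complex with it at the ciliary base that passes the signal from Smoothened to the Gli factors, read 300 and 218 (log2 ratio 0.42). Both genes of the complex were thus higher in the mutant pool, by 1 measured probe set each, with only Evc2 past 1.5-fold. A dim second probe set of Evc read 8 in mutant ovaries against 20.1 in control ovaries, both under the signal minimum. Inpp5e, a phosphoinositide phosphatase that sets the lipid content of the ciliary membrane, read 521 in mutant ovaries against 370 in control ovaries (log2 ratio 0.47), but its second probe set read 311 and 344 (-0.14). Tulp3, which brings receptors such as Gpr161 into the cilium, read 751 and 566 (log2 ratio 0.40), and its other measured probe set had a log2 ratio of 0.22. Kif7, a kinesin that organises the ciliary tip, had a log2 ratio of 0.27, and Gpr161, a receptor that holds the pathway off through cAMP, had 0.12. Stk36, the mouse fused kinase, was the lowest, at 633 in mutant ovaries against 735 in control ovaries (log2 ratio -0.21).

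**Figure D3:**
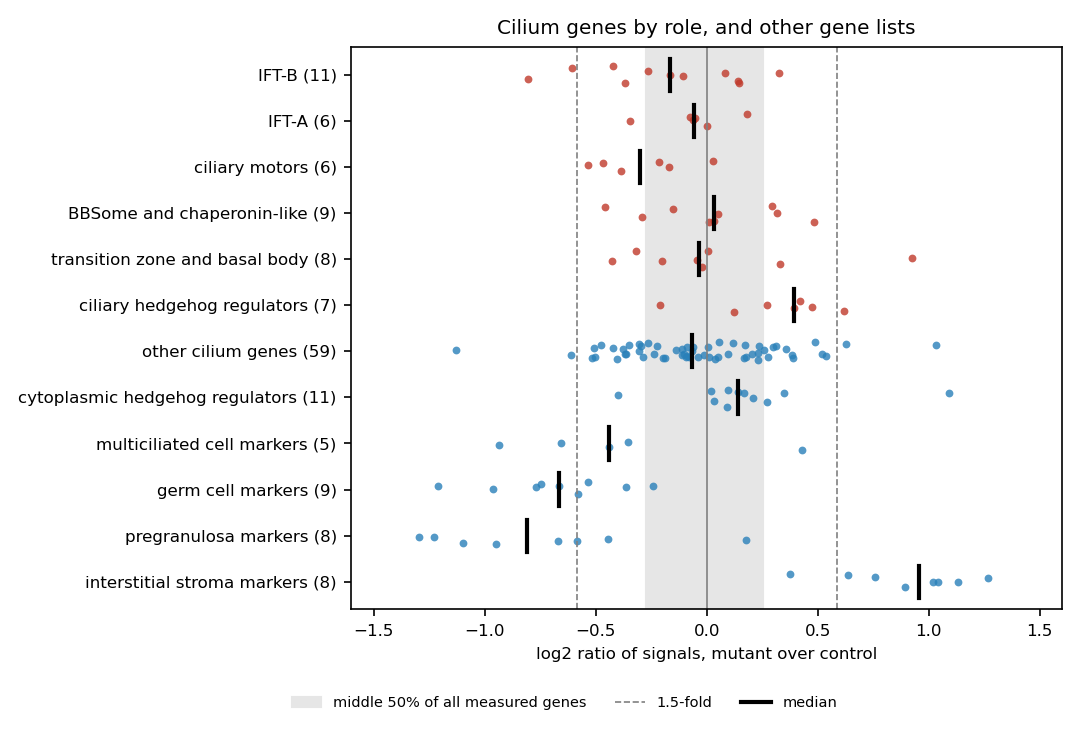
Log2 ratio of signals, mutant over control (horizontal axis), of each gene in the 6 role groups of cilium genes (red) and in other gene lists (blue), with the number of measured genes in brackets, black bars at the medians, shading over the middle 50% of all measured genes and dashed lines at 1.5-fold. The medians of the cilium role groups run from -0.30 (motors) to 0.40 (hedgehog regulators), and the lists of cell type markers lie further out, at -0.81 for pregranulosa and 0.96 for interstitial stroma.

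The sequences before the starts of the genes past 1.5-fold, and of Evc, are shown because Evc and Evc2 were both higher in the mutant pool and stand head to head on chromosome 5. The windows hold the 250 bases before the start, from RefSeq build GRCm38.p6, printed 5′ to 3′ on the strand of each gene. They lie at chr5:37336882-37337131 on the minus strand for Evc, chr5:37338228-37338477 on the plus strand for Evc2, chr10:100487332-100487581 (plus) for Cep290, chr5:31291115-31291364 (minus) for Ift172 and chr15:78174082-78174331 (minus) for Ift27. Capitals mark the hexamer GTTGCC or its reverse complement, the core of the site of RFX factors, which are regulators of ciliary genes.
Evc: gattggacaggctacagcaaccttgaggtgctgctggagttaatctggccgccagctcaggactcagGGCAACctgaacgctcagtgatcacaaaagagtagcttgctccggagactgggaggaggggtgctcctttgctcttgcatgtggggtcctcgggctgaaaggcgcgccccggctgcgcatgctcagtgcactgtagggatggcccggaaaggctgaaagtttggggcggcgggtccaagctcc
Evc2: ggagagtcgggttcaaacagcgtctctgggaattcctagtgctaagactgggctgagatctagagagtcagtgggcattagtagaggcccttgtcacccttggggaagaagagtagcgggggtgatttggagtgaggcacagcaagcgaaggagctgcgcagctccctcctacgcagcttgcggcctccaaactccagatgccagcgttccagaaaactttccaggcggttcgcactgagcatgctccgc
Cep290: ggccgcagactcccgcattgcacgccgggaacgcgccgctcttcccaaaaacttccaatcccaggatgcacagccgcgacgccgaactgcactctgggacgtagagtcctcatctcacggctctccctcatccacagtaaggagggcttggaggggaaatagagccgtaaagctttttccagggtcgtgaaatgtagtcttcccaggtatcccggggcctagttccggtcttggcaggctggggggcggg
Ift172: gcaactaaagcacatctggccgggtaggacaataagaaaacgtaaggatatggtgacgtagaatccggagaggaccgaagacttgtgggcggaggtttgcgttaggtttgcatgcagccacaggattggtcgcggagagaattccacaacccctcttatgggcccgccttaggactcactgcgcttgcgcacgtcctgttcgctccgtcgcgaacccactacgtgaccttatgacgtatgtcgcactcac
Ift27: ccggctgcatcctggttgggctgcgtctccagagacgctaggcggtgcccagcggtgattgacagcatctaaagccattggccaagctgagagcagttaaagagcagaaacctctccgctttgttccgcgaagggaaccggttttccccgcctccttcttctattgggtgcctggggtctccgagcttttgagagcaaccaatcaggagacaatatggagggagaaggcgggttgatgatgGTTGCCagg
The Evc and Evc2 windows are 1096 bases apart.

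Of the 50 genes 46 matched the promoter table, with 50 windows. The hexamer was found on either strand in 9 of the 50 member windows (18.0%) and in 10.4% of all 32851 windows of the same length. Of the genes shown here Evc and Ift27 hold it, 1 of them higher and 1 lower in the mutant pool. The longer RFX X-box, searched on both strands as GTTNCC, any 3 bases and GNAAC, was found in 2 member windows (4%) and in 0.667% of all windows. These matches, which contain the hexamer as their first bases, are shown because they are the only full ones among the cilium genes. That of Bbs7 lies at chr3:36613497-36613510 on the minus strand and that of Mks1 at chr11:87853191-87853204 on the plus strand.
Bbs7: GTTGCCTTGGAAAC
Mks1: GTTGCCAGGGGAAC
The log2 ratios of these genes were -0.15 for Bbs7 and 0.005 for Mks1, so neither passed 1.5-fold. The consensus site of the Gli factors, GACCACCCA, was searched on both strands and was found in 0 member windows and in 0.225% of all windows. A match is a run of letters and not a measured binding site.

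Several probe sets per gene gave the sole repeat measurement in these data. The 47 cilium genes had 77 probe sets, of which 63 were measured, and 11 genes had more than 1 measured. In 9 of these 11 all probe sets had the same sign, and Bbs4 and Inpp5e had both signs. The same count over all genes was not made, so 9 of 11 has no background to be read against. The pooled SD of the log2 ratio between probe sets of 1 gene was 0.51 over 27 probe sets of the 11 genes, and 0.38 over 13386 probe sets of all 5118 genes with several. A difference of 1.5-fold in 1 probe set is thus close to that spread. By probe set 4 of 63 (6.35%) were at least 1.5-fold higher, where 8.81% of all 20576 measured single-gene probe sets were, and 6 of 63 (9.52%) were that much lower, where 9.87% were. At 2-fold 0 were higher (2.89% of all) and 2 were lower (2.04% of all), these being Kif3a and Bbs4. The position of each probe set on its transcript was not analysed here, and the part of the 3' to 5' ratios given above in these disagreements was not tested.

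**Figure D4:**
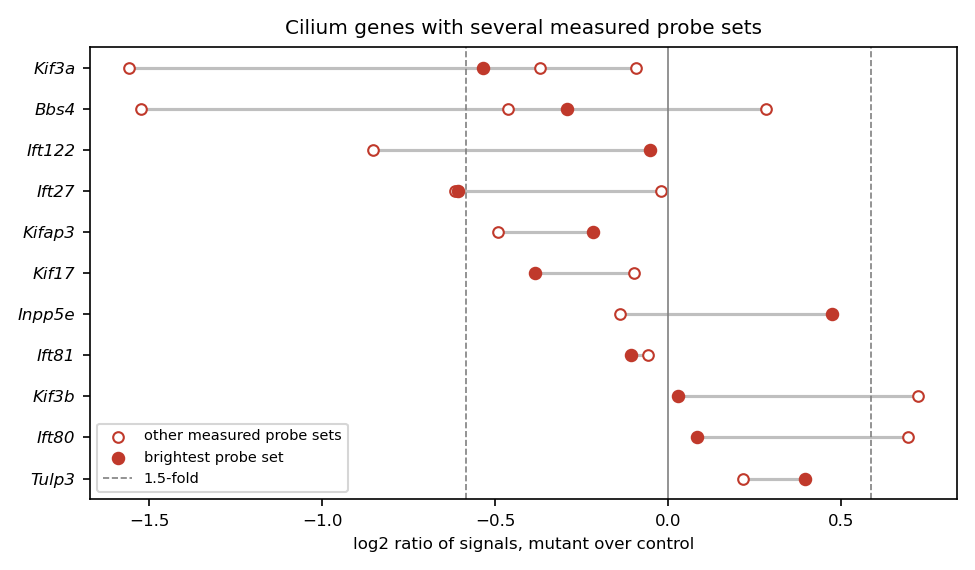
Log2 ratio of signals, mutant over control (horizontal axis), of every measured probe set of the 11 cilium genes that have more than 1, filled for the brightest and open for the others, with dashed lines at 1.5-fold. Kif3a and Bbs4 span 1.46 and 1.80 on the log2 scale, whereas the probe sets of Ift81 and Tulp3 lie close together.

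Other genes of the same structures were read from a separate list. Of 69 further cilium genes 59 were measured, with a median log2 ratio of -0.06. At least 1.5-fold higher were 2 of 59 (3.39%), where 9.32% of all measured genes were, and 2 of 59 (3.39%) were that much lower, where 7.90% were. Adcy3, the adenylyl cyclase of neuronal primary cilia, read 402 in mutant ovaries against 185 in control ovaries (log2 ratio 1.03), but a dimmer measured probe set gave 0.38. Trim32, a ubiquitin ligase mutated in a form of Bardet-Biedl syndrome, had 0.63. Tub, the tubby relative of Tulp3, read 78.8 in the mutant, under the signal minimum, and 199 in the control pool, at least 2.46-fold lower. Alms1, a basal body protein, had -0.61.

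A list labelled cytoplasmic regulators of the pathway was also read, although it holds genes needed for the cilium as well, such as Intu. Log2 ratios lay above 0 in 10 of its 11 measured genes (90.9%), where 47.5% of all measured genes did, with a median of 0.14. With the second brightest probe set where a gene had several measured, that median was -0.11. Genes with 1 measured probe set, such as Sufu, kept their value. At least 1.5-fold higher was 1 gene of the 11 (9.09%), close to the 9.32% of all measured genes. This was Intu, a planar polarity effector required for ciliogenesis, at 308 in mutant ovaries against 133 in control ovaries (log2 ratio 1.09), while another probe set gave -0.16. Its remaining measured probe set read 94.8 in mutant ovaries against 37.1, under the signal minimum, in control ovaries, which is at least 1.17-fold higher. Sufu, the repressor that holds Gli factors in the cytoplasm, read 532 in mutant ovaries against 709 in control ovaries (log2 ratio -0.40).

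Markers of several cell types differed between the pools by more than the cilium genes did. Markers of interstitial stroma were higher in the mutant pool, with a median log2 ratio of 0.96 over 8 of 8 genes, the highest being Vcan (1.27) and Pdgfra (1.13), and a summed signal of 74152 against 46008 in the control pool. Pregranulosa markers were lower in 7 of 8 genes, with a median of -0.81 and sums of 27270 and 37668, the lowest being Amhr2 (-1.30) and Lgr5 (-1.23). Kitl was the exception, at 14627 in mutant ovaries against 12948 in control ovaries (log2 ratio 0.18), though its other measured probe sets gave -0.20 and -0.24. Sums follow the brightest genes, and the largest parts were Kitl here and, in the stroma list, Col3a1 (36197 in mutant ovaries and 27925 in control ovaries). Mutant mice have Cre at Amhr2 itself, and without this gene, a choice made after seeing the data, the pregranulosa median was -0.67 over 7 genes and the sums were 23784 and 29077. All 9 germ cell markers were lower, with a median of -0.66 and sums of 24966 and 37818, the lowest being Sohlh1 (-1.21) and Figla (-0.96). The background for these directions is all 12308 measured genes, of which 5848 lay above 0 and 6456 below. In bulk RNA fewer cells of a type and less RNA per cell cannot be told apart. The part of these shifts in the log2 ratios of the cilium genes was not tested.

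Motile cilia share many of these genes, so markers of multiciliated cells were read as well. Of 20 genes listed 19 had a probe set and 5 were measured. Foxj1, the master regulator of motile cilia, read 60.1 in mutant ovaries against 10.7 in control ovaries, both under the signal minimum, as were all probe sets of Rsph1, Dnah5, Tekt1 and Hydin. The 5 measured genes had a median log2 ratio of -0.44 and summed signals of 2146 in mutant ovaries against 3231 in control ovaries. The largest part of both sums was Ccno, at 1095.7 in mutant ovaries and 1738.5 in control ovaries. Whether these signals come from multiciliated cells was not tested. The highest absolute values were those of Dnah9 (-0.93) and Ccno (-0.66). By direction 4 of the 5 were lower and 1 higher in the mutant pool, where 6456 of all 12308 measured genes were lower. The higher one, Tppp3, read 103 in mutant ovaries against 70.7, under the signal minimum, in control ovaries (log2 ratio 0.43).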

How the data were processed

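Ovary RNA of 8 mice per genotype was pooled and hybridised to 1 Affymetrix array each, per the labels' protocols. The authors deposited signal intensities, 1 per probe set and array, on a linear scale; the submitters' processing notes name GCOS, and its version is not given in the sources used here. Both arrays had a trimmed mean intensity of 500.0 with 2% left out at either end, so no second scaling was applied. In the platform annotation 34958 of 45101 probe sets had a single symbol, and the 932 with several and 9211 unlisted ones stayed unnamed. The 64 control probe sets entered no gene count.

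Measured probe sets are those at or above 80.7, the median over both arrays, on at least 1 array, and the brightest stands for its gene. Log2 ratios are mutant over control with 22.2 added to both signals (the 25th percentile over both arrays), which understates the change of dim genes. With 1 array per genotype no p-value was computed, and the number of arrays limits the precision. Full values are given for members at 1.5-fold, for the highest and lowest of each role group and for members whose probe sets differ by over 1 in log2 ratio. Other cilium genes are named at 1.5-fold, and of each marker list the 2 with the highest absolute log2 ratio. Signals of Ift88, Ift140, Dync2h1, Ofd1, Evc, Inpp5e, Tulp3, Sufu and Foxl2 are also printed, chosen after their values were seen. The same holds for Ccno, Tppp3, Kitl, Col3a1 and the extra probe sets of named genes. The members and lists were chosen with earlier results of these data known. The calculation was tested on simulated arrays, and 11 alternative settings were tried. Python 3.11.15, numpy 2.4.6 and pandas 2.3.3 were used, and promoter windows came from RefSeq, build GRCm38.p6.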

Additional observations from a re-analysis of the deposited data

How the results depend on the processing

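Of the counts and medians for the cilium genes, other cilium genes and regulators labelled cytoplasmic, 26 moved under the 11 alternative settings and 172 did not. A count moved when it changed by over 1.5-fold, or to or from 0. A median moved when it shifted by the probe-set SD of 0.38 over the square root of its number of genes. The direction of Cep290, Evc2, Ift172 and Ift27 was the same in every setting that gave them a value. Cep290, Evc2 and Ift172 had a single probe set each, so settings that change the probe set could not alter their direction. Evc2 fell short of 1.5-fold with a pseudocount of 80.7 (0.56), and Ift27 after centring on the median gene (-0.58) and with the mean over probe sets (-0.41), where Kif3a passed it. Members at least 1.5-fold higher numbered 1 with a pseudocount of 80.7 and 4 with the second brightest probe set, and members at least 1.5-fold lower numbered 1 after centring on the median gene, and 4 with the second brightest probe set or without probe sets shared between transcripts. In these last 2 settings 1 member, Bbs4, was at least 2-fold lower. With the second brightest probe set 9.29% of all genes were 1.5-fold higher and 11.0% lower, and 8.51% of members in each direction. Without shared probe sets 9.76% of members were lower, above the 8.59% of all genes, so a share of members below that of all genes does not hold in every setting. The median of the ciliary hedgehog regulators was 0.22 with the second brightest probe set, that of the cytoplasmic regulators -0.11 there, which turned its sign, that of the transition zone -0.18 over 4 genes with a minimum at the 75th percentile, and that of the other cilium genes -0.0069 with the mean over all probe sets. Other cilium genes at least 1.5-fold higher numbered 1 with the second brightest probe set or the 75th percentile minimum and 0 without shared probe sets; those lower numbered 1 when both arrays had to reach the minimum, with the higher pseudocount or after quantile normalization, 0 with the 75th percentile minimum, and 3 with no minimum or with the second brightest probe set. At 2-fold the counts of other cilium genes higher and lower were 1 or 0 in every setting. Of 498 single-gene values under alternatives, 490 moved by less than the probe-set SD of 0.38. This count says little, since 36 of the 47 members had 1 measured probe set. Settings that change the probe set could not move the values of those 36. The 8 values that moved came from 5 genes, all with several measured probe sets. No paired analysis was possible because each genotype has 1 array.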
